A study of Caenorhabditis elegans with 6 samples.

Results

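The genes described here are the 7 of *Caenorhabditis elegans* that carry the symbols *gcs-1*, *gss-1*, *gsr-1*, *cbs-1*, *cbs-2*, *cth-1* and *cth-2*, chosen by name from the 21507 genes of the deposited table for their place in making glutathione. RNA was sequenced from whole bodies of untreated L4 hermaphrodites, the last larval stage, in 3 wild-type samples (titled N2, the standard laboratory strain) and 3 samples of a glna knockout. The labels give neither the alleles nor which glna genes, which encode glutaminases, were removed. They also do not say whether each replicate was its own culture; the p-values therefore cover the variation among these samples alone, and part or all of it may be technical.

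Glutathione is a tripeptide of glutamate, cysteine and glycine that keeps the inside of cells reduced and neutralises peroxides and reactive compounds. Its cysteine can come from methionine by transsulfuration: cystathionine beta-synthase joins homocysteine to serine, and cystathionine gamma-lyase splits the product to release cysteine. Glutamate-cysteine ligase then joins glutamate to cysteine, glutathione synthetase adds glycine, and glutathione reductase returns the oxidised form to the reduced one. Glutaminase, the enzyme that the glna genes encode, makes glutamate from glutamine, so the comparison of genotypes bears on a pathway that uses its product.

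Each library held between 18443661 and 19861540 reads recovered from the deposited normalized counts, and the 7 genes had between 196 (*cbs-2*) and 7925 (*cth-2*) reads in a library. As a check of the labels, *glna-2* fell from 458 ± 56.3 normalized counts to 57.6 ± 17.6 in the knockout and *glna-3* from 689 ± 64.8 to 125 ± 46.6 (SD, n = 3 each; limma, adjusted p = 0.0222 and 0.0291). *glna-1* had 264 ± 7.88 against 156 ± 29.7, with an adjusted p of 0.0762 in limma and 0.0074 in the authors' deposited table. Knockout replicate 1 stood apart from the other libraries: 3.58% of its reads lay in ribosomal RNA genes, where the other libraries had 0.331% to 0.763%. Of 62 markers of 7 tissues, 0 were at 0 in any library, so intestine, hypodermis, muscle, pharynx, neurons and germ line were all represented. In bulk RNA, fewer cells of a type and less RNA per cell cannot be told apart.

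Of the 7 genes, *gcs-1* was higher in all knockout libraries than in all wild-type ones, *cbs-2* and *gsr-1* were lower in every one, and the other 4 overlapped. All 7 passed the filter on low values (a mean of at least 10 normalized counts). In limma, with Benjamini-Hochberg adjustment over all 15169 genes tested and a threshold of 0.05, 0 of the 7 were called, against a background of 0.356% of genes. Unadjusted p was under 0.05 for 2 of 7, *cbs-2* and *gcs-1*, where 22.6% of all tested genes passed. The authors' deposited adjusted p called 1 of the 7, *cbs-2*, where 8.11% of the genes with a value below 1 were called (3.99% higher and 4.12% lower). On the recovered reads DESeq2 also called *cbs-2* alone, with a background of 8.3%, and edgeR called 0, with a background of 0.0593%. Groups that did not overlap were seen in 3 of the 7 and in 30.5% of all genes tested (15.3% with the knockout above and 15.2% with it below), so these shares give no result about the set. The median absolute log2 fold change was 0.21 over the 7 and 0.25 over all tested genes.

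**Figure D1:**
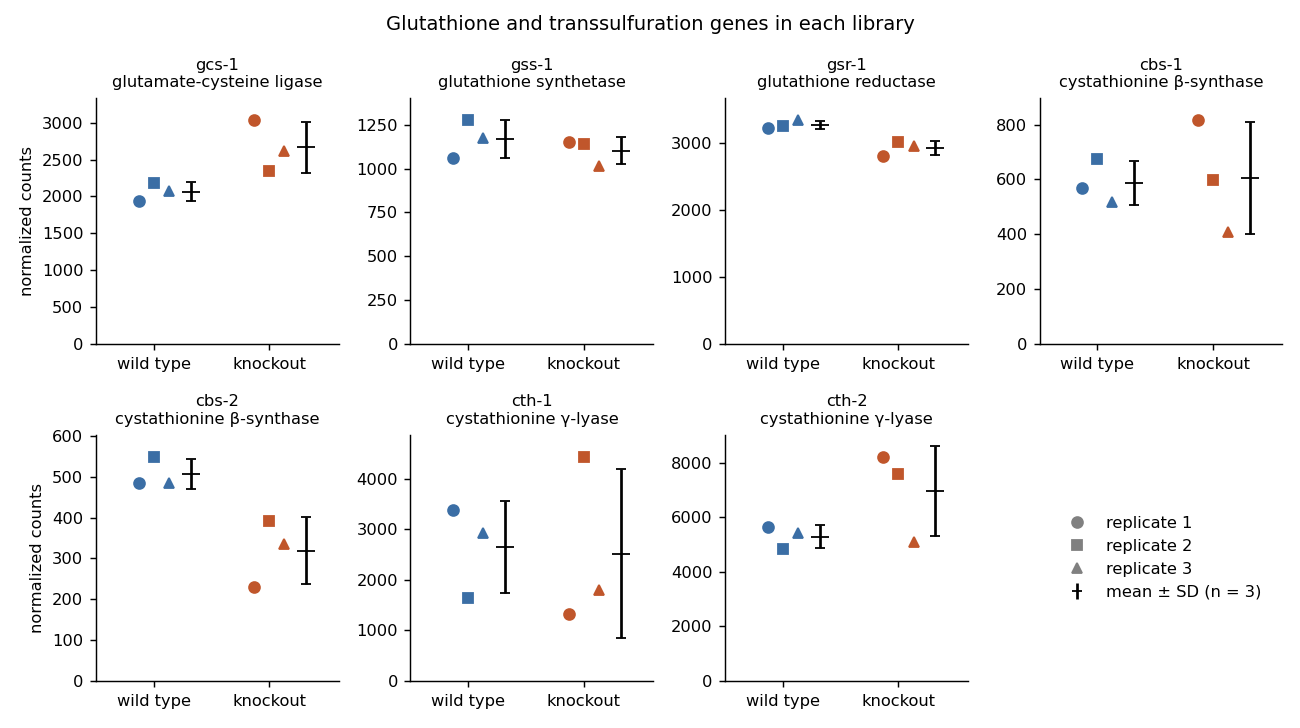
Normalized counts (vertical axes, from 0) of the 7 genes in each of 3 wild-type and 3 knockout libraries, with the shape of a point giving its replicate number and the bar the mean ± SD (n = 3). The *gcs-1* points of the knockout lie between 2348 and 3030, above all wild-type points, those of *cbs-2* between 229 and 392, below all wild-type points, and *cth-1* ranges widely in both genotypes.

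The first step of glutathione synthesis is encoded by *gcs-1* (F37B12.2, chromosome II, 9035561 to 9038301, minus strand, WBcel235), the catalytic subunit of glutamate-cysteine ligase and in worms a widely used target of the stress-response factor SKN-1. Its normalized counts were 1943, 2189 and 2067 in wild type replicates 1, 2 and 3 and 3030, 2348 and 2620 in knockout replicates 1, 2 and 3. The knockout libraries were all above the wild-type ones, with replicate 1 the highest. Means were 2066 ± 123 and 2666 ± 344 (SD, n = 3 each), a ratio of 1.29. limma gave a log2 fold change of 0.36 (SE 0.13, 95% interval 0.07 to 0.65) with an adjusted p of 0.155, so the gene did not pass; the authors' deposited table has 0.123 for it. The modifier subunit of the same ligase, *gclm-1* (E01A2.1), was looked up after the values of *gcs-1* were seen. Its normalized counts were 686, 707 and 686 in wild type replicates 1, 2 and 3 and 723, 631 and 609 in knockout replicates 1, 2 and 3, with groups that overlapped (limma log2 fold change -0.09, adjusted p = 0.689).

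The second step is that of *gss-1* (M176.2, chromosome II, 9414559 to 9416434, minus strand), glutathione synthetase. It had 1058, 1275 and 1172 normalized counts in wild type replicates 1, 2 and 3 and 1154, 1141 and 1014 in knockout replicates 1, 2 and 3. The groups overlapped, and the limma log2 fold change of -0.08 (SE 0.12) had a 95% interval of -0.36 to 0.20, that is from 0.780-fold to 1.15-fold, with an adjusted p of 0.714. Within each library *gcs-1* was set against *gss-1* as a log2 ratio of normalized counts. It was 0.88, 0.78 and 0.82 in wild type replicates 1, 2 and 3 and 1.39, 1.04 and 1.37 in knockout replicates 1, 2 and 3. All knockout ratios were above all wild-type ratios, with a mean difference of 0.44. The two-sided exact permutation test gave p = 0.1, the smallest that 3 libraries against 3 allow, and 0.3 after Benjamini-Hochberg adjustment over the 3 ratios tested. Without knockout replicate 1 the difference was 0.38. A piRNA gene on the opposite strand lies within *gss-1* over 21 exonic bases, and its own level was not analysed here.

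Glutathione reductase is encoded by *gsr-1* (C46F11.2, chromosome III, 3650906 to 3653154, plus strand), which in worms is made as a cytosolic and a mitochondrial form that counts per gene do not separate. Its normalized counts were 3232, 3262 and 3346 in wild type replicates 1, 2 and 3 and 2818, 3018 and 2956 in knockout replicates 1, 2 and 3. The knockout libraries all lay below the wild-type ones, by a small margin: the means were 3280 ± 59.0 and 2931 ± 103 (SD, n = 3 each). This was also the steadiest of the 7, with a within-genotype SD of 0.04 on the log2 scale, and only 0.534% of the genes tested had a lower one. The limma log2 fold change was -0.16 (SE 0.10, 95% interval -0.39 to 0.07) and did not pass (adjusted p = 0.356 in limma and 0.433 in the authors' deposited table). A gene on the opposite strand, C46F11.5, overlaps its end in the Ensembl annotation, which starts C46F11.5 at 3652866 and ends *gsr-1* at 3652958. The deposited end of *gsr-1*, 3653154, lies further into C46F11.5, so the overlap of the gene as counted may be longer. Since the library kit is not stated to keep strand, reads there cannot be told apart. C46F11.5 itself had 418 ± 28.6 normalized counts against 420 ± 41.8 in the knockout (SD, n = 3 each).

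**Figure D2:**
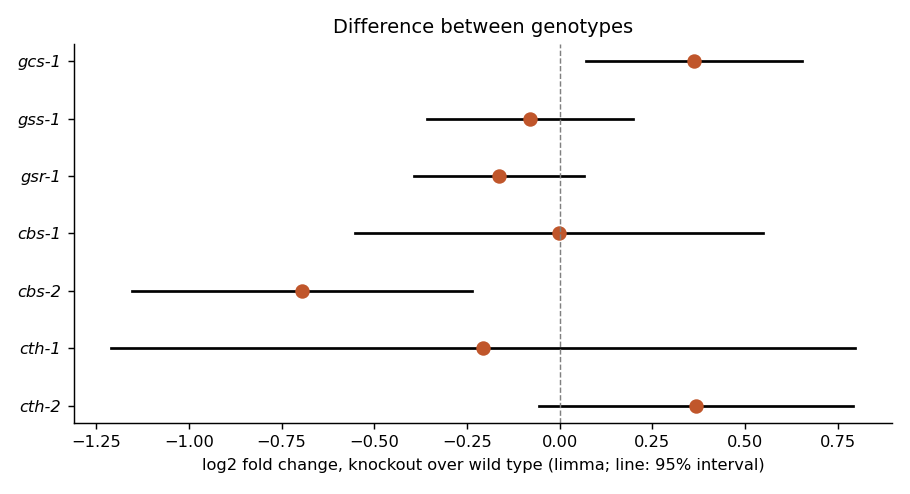
Log2 fold change of knockout over wild type (horizontal axis) for each of the 7 genes, as fitted by limma on log2(normalized count + 1), with lines for the 95% interval of that fit. The intervals of *gcs-1* (0.07 to 0.65) and *cbs-2* (-1.15 to -0.24) leave out 0 before adjustment for the number of genes, and that of *cth-1* is the widest.

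Transsulfuration begins with cystathionine beta-synthase, for which the worm has a pair of genes. *cbs-2* (F54A3.4, chromosome II, 2220432 to 2223540, minus strand) showed the largest difference of the 7 genes. Its normalized counts were 483, 548 and 485 in wild type replicates 1, 2 and 3 and 229, 392 and 336 in knockout replicates 1, 2 and 3. Every knockout library was below every wild-type library, with replicate 1 the lowest. The means were 506 ± 36.9 and 319 ± 82.7 (SD, n = 3 each), wild type being 1.58-fold the knockout. In limma the log2 fold change was -0.69 (SE 0.20, 95% interval -1.15 to -0.24), which did not pass (adjusted p = 0.112). In the authors' deposited table *cbs-2* fell (log2 fold change -0.66, adjusted p = 0.0427). DESeq2 on the recovered reads gave an adjusted p of 0.0424, which became 0.0673 without knockout replicate 1, while edgeR's quasi-likelihood test gave 0.126. A non-coding RNA gene on the opposite strand, F54A3.10, overlaps *cbs-2* by 30 exonic bases; reads there cannot be told apart, and its own level was not analysed here.

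*cbs-1* (ZC373.1, chromosome X, 10054279 to 10056212, plus strand) had 570, 675 and 517 normalized counts in wild type replicates 1, 2 and 3 and 816, 597 and 408 in knockout replicates 1, 2 and 3. The knockout libraries held both the highest and the lowest of the 6 values, so the groups overlapped. Its limma log2 fold change of 0.00 (SE 0.24, adjusted p = 0.998) had a 95% interval of -0.55 to 0.55, so a difference of up to 1.46-fold in either direction lies within it. Per length, *cbs-1* made up 51.0%, 52.1% and 48.5% of the pair in wild type replicates 1, 2 and 3 and 75.9%, 57.3% and 51.8% in knockout replicates 1, 2 and 3. Both genes were thus about equally abundant in wild type, and knockout replicate 3 lay within the wild-type range. The log2 ratio of *cbs-1* to *cbs-2* averaged 0.21 ± 0.11 in wild-type libraries and 0.90 ± 0.81 in knockout ones (SD, n = 3 each; two-sided exact permutation p = 0.2, adjusted 0.3). The difference of 0.69 became 0.23 without knockout replicate 1.

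Cystathionine gamma-lyase, which releases the cysteine, is encoded by *cth-1* and *cth-2*. *cth-2* (ZK1127.10, chromosome II, 7056172 to 7057960, minus strand) was the most abundant of the 7, with 5634, 4820 and 5417 normalized counts in wild type replicates 1, 2 and 3 and 8203, 7579 and 5082 in knockout replicates 1, 2 and 3. Knockout replicates 1 and 2 were above all wild-type libraries and replicate 3 was within their range. The means were 5290 ± 422 and 6955 ± 1652 (SD, n = 3 each), and the limma log2 fold change of 0.37 (SE 0.18, 95% interval -0.06 to 0.79) did not pass (adjusted p = 0.272 in limma and 0.233 in the authors' deposited table).

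*cth-1* (F22B8.6, chromosome V, 16100655 to 16102744, plus strand) was the most variable of the 7. It had 3381, 1633 and 2932 normalized counts in wild type replicates 1, 2 and 3 and 1321, 4434 and 1799 in knockout replicates 1, 2 and 3. Levels differed 2.07-fold among wild-type libraries and 3.36-fold among knockout libraries, so that the spread within a genotype exceeded the difference between the means of 2648 ± 908 and 2518 ± 1676 (SD, n = 3 each). Its within-genotype SD of 0.75 on the log2 scale was higher than in 95.8% of the genes tested. The limma log2 fold change of -0.21 (SE 0.44, adjusted p = 0.804) has a 95% interval from 0.432-fold to 1.74-fold. The sign turned without knockout replicate 1 (log2 fold change 0.16).

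Because *cth-1* and *cth-2* varied separately, the share of *cth-2* in the pair moved between libraries. Per length it was 61.1%, 73.6% and 63.5% in wild type replicates 1, 2 and 3 and 85.4%, 61.7% and 72.7% in knockout replicates 1, 2 and 3. The highest share was in knockout replicate 1, and the other knockout libraries fell within the wild-type range. The log2 ratio of *cth-2* to *cth-1* averaged 1.06 ± 0.44 in wild-type libraries and 1.63 ± 0.94 in knockout ones (SD, n = 3 each; two-sided exact permutation p = 0.6, adjusted 0.6). The difference of 0.57 became 0.074 without knockout replicate 1 and 1.004 without knockout replicate 2. Identity between the members of each pair was not analysed here, so whether they share reads is uncertain.

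Levels were compared between genes as normalized counts per kilobase of the deposited gene length. In wild type the order was *cth-2* (3795 ± 303), *cth-1* (2014 ± 691), *gsr-1* (1700 ± 30.6), *gcs-1* (883 ± 52.5), *gss-1* (717 ± 66.4), *cbs-1* (257 ± 35.2) and *cbs-2* (250 ± 18.3; SD, n = 3 each). The ranges of *cth-1* and *gsr-1* overlapped, as did those of *cbs-1* and *cbs-2*, and the other neighbours in the order were apart in every library. The same order held for the knockout means, with the same overlaps. Scaled instead to the merged exons of the Ensembl annotation, a choice made after seeing the data, *gsr-1* (2068 ± 37.2) and *cth-1* (2044 ± 701) changed places in wild type but not in the knockout, and the other 5 kept theirs. RNA of the lyase genes was thus far more abundant than that of the synthase genes before them: the *cth* pair summed to 5809 ± 993 per kilobase against 6904 ± 1897 in the knockout, and the *cbs* pair to 507 ± 52.7 against 423 ± 68.5 (SD, n = 3 each). Over all libraries *cth-2* stood above 96.6% of the tested genes and *cbs-2* above 45.9%.

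**Figure D3:**
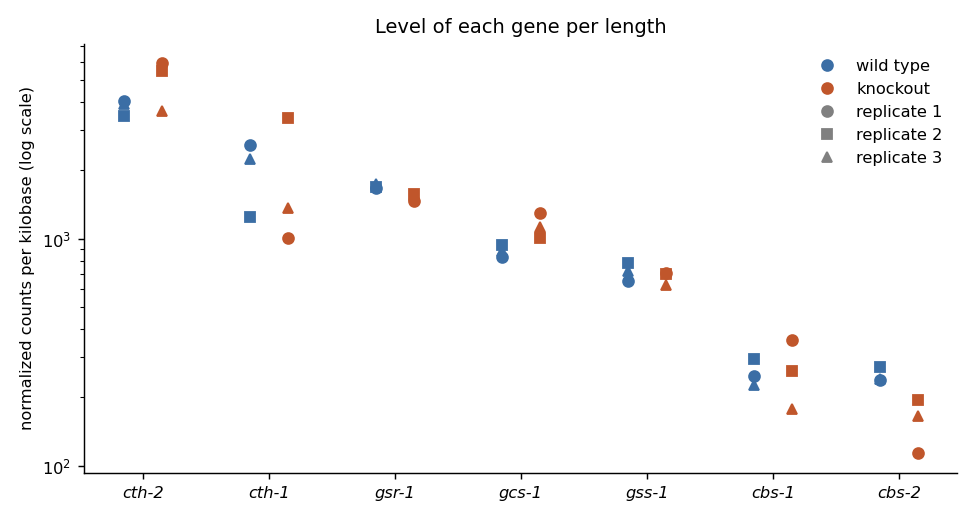
Normalized counts per kilobase of gene length (vertical axis, log scale) in each library, with genes ordered by their wild-type mean, colours for genotype and shapes for replicate number. The *cth-2* points lie at 3457 or above in every library and the *cbs-2* points at 271 or below.

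Knockout replicate 1 held the highest or the lowest of the 6 values for 6 of the 7 genes, *gss-1* being the exception, and for 59.7% of all tested genes. Its *gcs-1* level was 0.55 above the wild-type mean on the log2 scale, against 0.19 and 0.34 in knockout replicates 2 and 3, and its *cbs-2* level was at -1.13, against -0.36 and -0.59. Tissue markers moved too. All 13 oocyte markers had positive log2 fold changes, where 51.2% of all tested genes had one, and 4 were higher in the authors' deposited table (background 3.99%). They summed to between 18480 and 29403 normalized counts in wild type and between 31073 and 78505 in the knockout, the maximum in replicate 1. Of the 5 pharynx markers limma called 1, *marg-1* (log2 fold change 1.29, adjusted p = 0.0291), where it called 0.356% of all tested genes. Pharynx markers (4 of 5 with positive values, 3 higher in the authors' deposited table, background 3.99%) summed to between 17071 and 18282 in wild type and between 22315 and 39839 in the knockout. *myo-1* (7239 ± 464 in wild type, 12394 ± 4381 in the knockout) and *myo-2* (8931 ± 271 and 14613 ± 5171) made up most of that sum (SD, n = 3 each). The limma log2 fold change was -0.01 for *pha-4* and 0.19 for *tnc-2*. Sperm markers (9 of 11 with negative values, 3 lower in the authors' deposited table, background 4.12%) summed to between 27287 and 37889 in wild type and to between 23242 and 29054 in the knockout. The 10 intestine markers had a median log2 fold change of 0.06, with 6 positive values and 0 called in the authors' deposited table. Their sum was higher in every knockout library, at 484857 to 1296199 against 332197 to 405386, with the maximum in replicate 1. Most of that sum came from the yolk protein genes *vit-2* (93087 ± 25606 in wild type, 287260 ± 202493 in the knockout) and *vit-6* (129949 ± 19584 and 347530 ± 230214; SD, n = 3 each). The sums of hypodermis, body wall muscle and neuron markers overlapped between the genotypes. Most of the hypodermis sum came from *col-19* (24227 ± 2572 in wild type, 24369 ± 4778 in the knockout). Of the 9 hypodermis markers, the authors' deposited adjusted p called 1 higher (background 3.99%) and 1 lower (4.12%). These were *elt-3* (658 ± 54.6 and 922 ± 99.9, adjusted p = 0.0366) and *grl-4* (4560 ± 474 and 2346 ± 675, 9.5e-04). Both had groups apart (SD, n = 3 each), and limma called neither. The authors called 0 body wall muscle or neuron markers. None of the 62 tissue markers was at 0 in any library. Their part in the differences of *gcs-1*, *gsr-1* and *cbs-2* was not tested. Without knockout replicate 1 the limma log2 fold change was 0.27 for *gcs-1*, -0.13 for *gsr-1* and -0.47 for *cbs-2* (adjusted p = 0.251, 0.447 and 0.152).

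**Figure D4:**
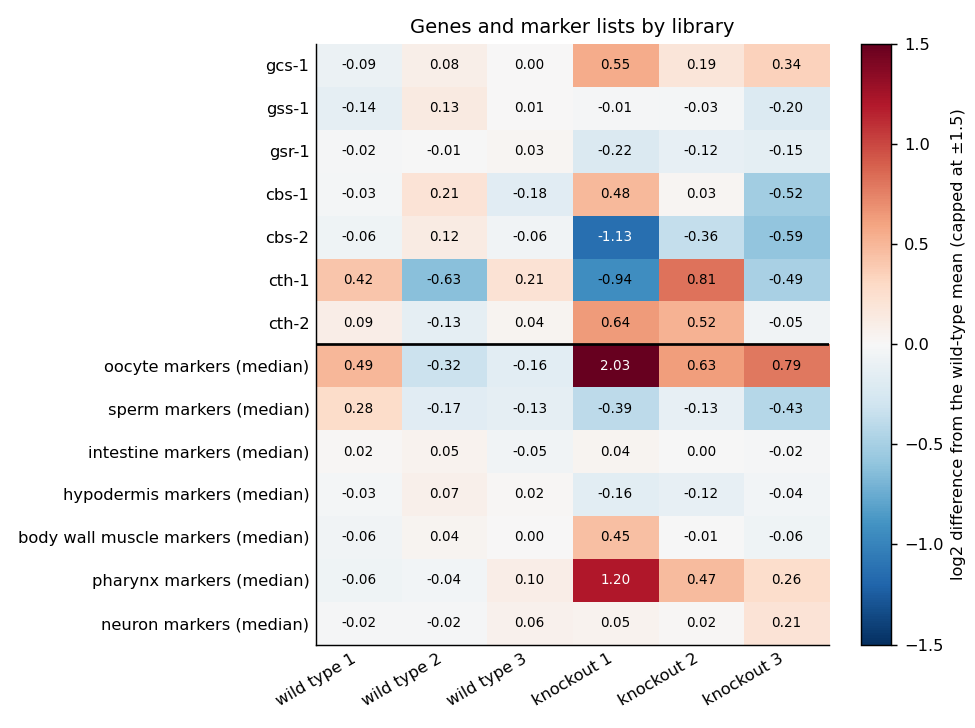
Log2 difference of each library (columns) from the wild-type mean, for the 7 genes (above the line) and for the medians of the 7 tissue marker lists (below it). Colours and printed values show knockout replicate 1 furthest from 0 for *gcs-1*, *gsr-1*, *cbs-2*, *cth-1* and *cth-2*. The same holds for the oocyte (2.03), pharynx, body wall muscle and hypodermis medians.

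Genes around the pathway were counted in 7 lists. Each list's median log2 fold change in limma stands beside the 0.01 of all tested genes, and limma called 0 members of any of these 7 lists. Among all tested genes 51.2% had a positive value and 22.6% an unadjusted p under 0.05; the authors' deposited table called 3.99% of genes higher and 4.12% lower. Homocysteine, the input of transsulfuration, comes from the methionine cycle. The 8 genes listed for that cycle had a median of 0.21 with 8 positive values (51.2% of all genes). They were not divided into those whose products make homocysteine and those whose products use it. The smallest were those of *ahcy-1* (0.0009) and *sams-4* (0.003), and that of *sams-4* was -0.005 in the authors' deposited table. Groups that did not overlap were seen in 0 of the 8, against 30.5% of all tested genes. Of the 8, 1 was under 0.05 in unadjusted p (22.6% of all genes) and 1 was called higher by the authors' deposited adjusted p. The latter was *sams-1*, which makes S-adenosylmethionine. It had 8976, 5971 and 11341 normalized counts in wild type replicates 1, 2 and 3 and 20310, 15032 and 11312 in knockout replicates 1, 2 and 3. Knockout replicate 3 lay within the wild-type range (adjusted p = 0.140 in limma and 0.0373 in the authors' deposited table).

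Of 16 genes of cysteine and hydrogen sulfide metabolism, 14 were matched and 12 tested, with a median of -0.09. Unadjusted p was under 0.05 for 4 of them (22.6% of all genes). The authors' deposited adjusted p called 1 of them higher (background 3.99%), *ethe-1*, whose human counterpart is a mitochondrial persulfide dioxygenase of sulfide breakdown. Its normalized counts were 54.8, 53.2 and 62.8 in wild type replicates 1, 2 and 3 and 99.5, 84.2 and 109 in knockout replicates 1, 2 and 3. Groups were apart (limma log2 fold change 0.76, SE 0.19, adjusted p = 0.0896; 0.0479 in the authors' deposited table).

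A list of enzymes that use glutathione, the glutathione peroxidases and glutaredoxins with the glyoxalase-related *glod-4*, had a median of -0.12 over 13 tested of 14. Glutathione S-transferases, which also use it, were not on this list. Unadjusted p was under 0.05 for 1 (22.6% of all tested genes), and the authors' deposited adjusted p called 0 (background 8.11%). The smallest p-values were those of *gpx-3*, a glutathione peroxidase with 303 ± 61.6 normalized counts against 419 ± 51.0 in the knockout (adjusted p = 0.178 in limma), and *glrx-5*, a glutaredoxin with 564 ± 1.48 against 479 ± 61.9 (0.307; SD, n = 3 each). The thioredoxin system, which reduces proteins in parallel with glutathione, had a median of -0.04 over 8 tested of 10. The system had 1 gene under 0.05 in unadjusted p (22.6% of all tested genes) and 0 called by the authors (background 8.11%). Its lowest value was that of *trx-3*, a thioredoxin, at 614 ± 81.1 against 335 ± 143 normalized counts (adjusted p = 0.141 in limma), followed in p by the peroxiredoxin *prdx-2* at 9374 ± 653 and 7973 ± 1040 (0.315; SD, n = 3 each).

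SKN-1, its regulators and some of its known targets had a median of 0.14 over 12 genes. Unadjusted p was under 0.05 for 1 of them (22.6% of all tested genes). The authors' deposited adjusted p called 1 of them lower (background 4.12%), *gst-10*, a glutathione S-transferase of a large family whose members may share reads. It had 2421, 3021 and 2376 normalized counts in wild type replicates 1, 2 and 3 and 1004, 1662 and 1034 in knockout replicates 1, 2 and 3, the groups being apart (limma log2 fold change -1.11, SE 0.21, adjusted p = 0.0620; 2.4e-04 in the authors' deposited table). HIF-1, its regulators and known targets, 3 of which are also sulfide genes, had a median of -0.05 over 9. Of the 9, 1 was under 0.05 in unadjusted p (22.6% of all tested genes). The authors' deposited adjusted p called 1 lower, *phy-2*, a subunit of the collagen prolyl hydroxylase, at 1589 ± 390 and 817 ± 140 normalized counts (SD, n = 3 each), with an adjusted p of 0.0764 in limma and 0.0017 in the authors' deposited table.

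Transporters of the multidrug resistance protein (MRP) family, with *hmt-1* and *ctns-1*, had a median of 0.30 over 10 genes, 0.21 without knockout replicate 1. Of these 5 were under 0.05 in unadjusted p, as were 22.6% of all tested genes, and 6 had all knockout libraries above all wild-type ones, as had 15.3% of all tested genes. The authors' deposited adjusted p called 2 of them higher (background 3.99%). *ctns-1*, the worm counterpart of the lysosomal cystine transporter cystinosin, had 927, 797 and 874 normalized counts in wild type replicates 1, 2 and 3 and 1487, 1052 and 1277 in knockout replicates 1, 2 and 3 (limma log2 fold change 0.54, SE 0.15, adjusted p = 0.104; 0.0306 in the authors' deposited table). *mrp-4* had 883, 717 and 743 and then 3109, 1101 and 1140 (adjusted p = 0.157 in limma and 0.0178 in the authors' deposited table). In both genes knockout replicate 1 was the highest library.

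**Figure D5:**
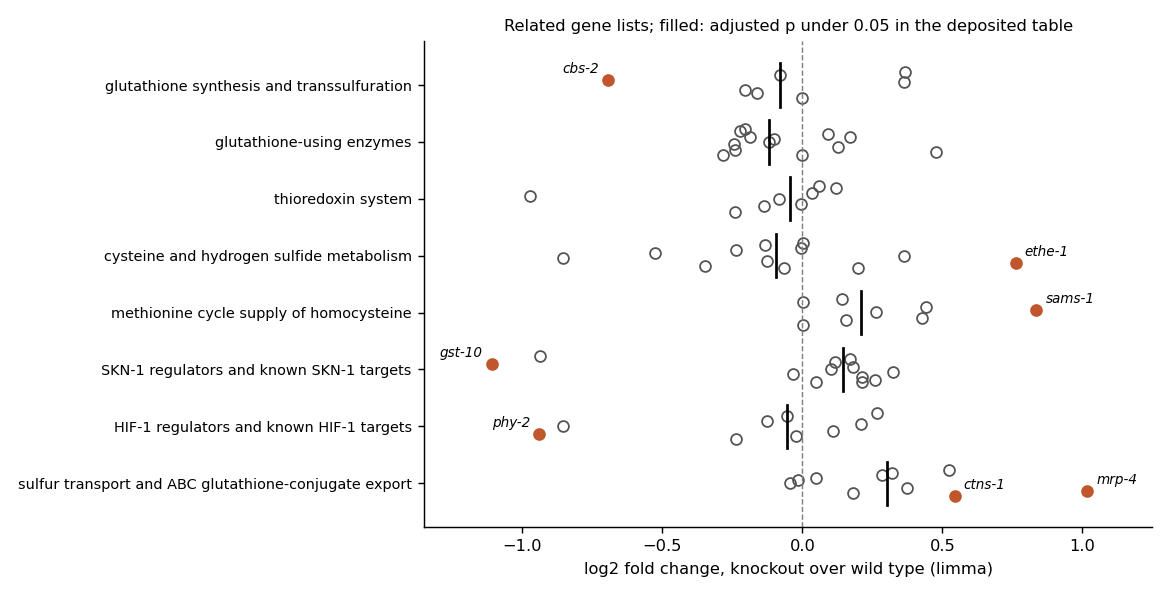
Log2 fold change of knockout over wild type in limma (horizontal axis) for every tested gene of the 7 described here and of the 7 related lists, with a vertical bar at each list's median. Filled points are genes at an adjusted p under 0.05 in the authors' deposited table: *cbs-2*, *ethe-1*, *sams-1*, *gst-10*, *phy-2*, *ctns-1* and *mrp-4*; limma called 0 of the genes shown.

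The genes with the most similar pattern over the 6 libraries were found by Pearson's r of log2 values among 12226 other genes with a symbol and a mean of 50 or more. Such r values share the genotype difference and knockout replicate 1, and over 6 points high values arise easily when so many genes are searched. For *gcs-1* they were *tmc-1* and C24A3.2 (r = 0.995 and 0.994), for *gss-1* *dgk-1* and *gst-22* (0.991 and 0.989), and for *gsr-1* *mrpl-50* and *clc-19* (0.996 and 0.994). For *cbs-1*, *gcst-1* had an r of 0.990, and *cbs-2* was closest to *pfn-2* and ZK909.3 (both 0.998). *cth-1* was closest to *angl-1* and D2023.4 (0.994 and 0.993), and *cth-2* to *twk-12* and Y11D7A.3 (0.998 and 0.994). With an r above 0.99 there were 53 genes for *cbs-2*, more than the 1 to 5 of the other members.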

How the data were processed

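Per the labels' protocols, TRIzol RNA went into NEBNext Ultra libraries, with no word on strand. The submitters' processing notes name HISAT2 2.0.5, featureCounts 1.5.0-p3, DESeq2 1.20.0, StringTie 1.3.3b, CASAVA 1.8 and the build WBcel235, with no order given. Per the file headers and values, the signal columns are the authors' read counts scaled by a size factor for each library; the deposited table also gives log2 fold changes of knockout over wild type and p-values with adjusted values, 6267 of them exactly 1 and treated as not tested. Every column is made of multiples of its own step, and dividing by it returned whole reads for 100% of values (tolerance 0.01). Replicates differed by more than counting noise (chi-square per degree of freedom 17.8 to 124).

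Symbols came from RefSeq locus tags and the Ensembl 115 annotation (21059 IDs); coordinates are those deposited. The members and lists were chosen with earlier results of these data known. The main test was limma 3.58.1 (R 4.3.3; empirical Bayes with trend) on log2(normalized count + 1) of the 15169 genes whose mean was 10 or more, with Benjamini-Hochberg adjustment. Fold changes on that scale are understated for low genes. Ratios between genes were tested by exact permutation over libraries. Named genes were the 7; from each list, genes called by limma or in the deposited table, otherwise the 2 with the smallest limma p; the 2 most similar genes to each of the 7 (1 is not reported here); and *glna-1*, *glna-2* and *glna-3*. *gclm-1* and overlapping genes were added after values were seen. *mpst-2* and *sqrd-2* were not analysed here. Alternatives were other pseudocounts, filters, normalization and weights, a replicate block, leaving out libraries, edgeR 4.0.16 and DESeq2 1.42.0 on the recovered reads. The limma step was tested on simulated data. Figures used Python 3.11.15 and matplotlib 3.10.9.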

Additional observations from a re-analysis of the deposited data

How the results depend on the processing

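limma called 0 of the 7 genes under every limma setting tried (2 were under 0.05 in unadjusted p as reported above), and edgeR called 0; the count was 1 (*cbs-2*) in the authors' deposited table and 1 with DESeq2 on the recovered reads, and 0 with DESeq2 without knockout replicate 1, a setting chosen after seeing the data. The direction was kept in all 17 alternatives for *gcs-1* (log2 fold change 0.26 to 0.45), *gss-1* (-0.15 to -0.02), *gsr-1* (-0.20 to -0.13), *cbs-2* (-0.86 to -0.47) and *cth-2* (0.23 to 0.58). For *gcs-1*, *gsr-1* and *cbs-2*, whose groups did not overlap, leaving out a library could not have turned the direction. *cbs-1*, at 0.00, turned to 0.046 in the authors' deposited table, 0.033 in edgeR and 0.045 in DESeq2 and ranged from -0.24 to 0.26 when single libraries were left out. *cth-1* ranged from -0.71 to 0.16 in the same way and was 0.23 in DESeq2 without knockout replicate 1; the cause was not tested.

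Over all genes limma called 54. The count was 19 with a pseudocount of 0.5, 19 with a mean of at least 50, 164 with no filter, 320 with sample weights, 9 in edgeR, 1258 in DESeq2, 1236 in the authors' deposited table and 754 in DESeq2 without knockout replicate 1; the cause was not tested. Leaving out single libraries gave 0 to 247. It was 0 when replicate 1 or 2 of wild type or replicate 3 of the knockout was left out (unadjusted p was then under 0.05 for 2805, 2018 and 3267 genes), 1 when wild type replicate 3 was and 247 when knockout replicate 2 was. With the replicate number as a block, limma called 688 genes but 0 of the 7. Deviations of same-numbered libraries correlated at 0.20, -0.02 and 0.29, and those of differently numbered libraries at -0.37 to 0.13. These values do not settle whether same-numbered libraries belong together, and the main fit did not pair the samples by number.

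The 3 ratios between genes kept their direction with either pseudocount and without any one library, but their sizes moved. For *gcs-1* to *gss-1*, whose groups did not overlap, leaving out a library could not have turned the direction. Leaving out single libraries gave 0.074 to 1.004 for *cth-2* to *cth-1* (0.57 with all; 0.074 without knockout replicate 1 and 1.004 without knockout replicate 2), 0.23 to 1.01 for *cbs-1* to *cbs-2* (0.69 with all; 0.23 without knockout replicate 1) and 0.38 to 0.56 for *gcs-1* to *gss-1*. Counting error covers the read numbers only, and 3 libraries a group limit precision more than depth does.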

Other observations

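The deposited coordinates of *cbs-1* span 1934 bases, fewer than its deposited length of 2288 bases. The Ensembl 115 annotation places the gene at chromosome X, 10054275 to 10057528, with 2294 exonic bases. Its length-scaled level above rests on the deposited length. Of all 21507 listed genes, 360 have a deposited length above their deposited span.

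At the end of *cth-2*, the gene ZK1127.3 on the opposite strand overlaps it by 8 exonic bases in the Ensembl annotation. ZK1127.3 had 373, 313 and 336 normalized counts in wild type replicates 1, 2 and 3 and 457, 379 and 428 in knockout replicates 1, 2 and 3, all knockout values being above all wild-type values (limma log2 fold change 0.31, SE 0.14, adjusted p = 0.229).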
